A study of Mus musculus with 14 samples.

Results

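The Dlx genes examined here were the 6 distal-less homeobox genes of the mouse, Dlx1 to Dlx6, which lie in the genome as 3 pairs, Dlx1/Dlx2, Dlx3/Dlx4 and Dlx5/Dlx6. They are 6 of the 22367 protein-coding genes of the GENCODE vM1 annotation of the mm9 genome. Their acetylated regions were the peaks of the histone H3 lysine 27 acetylation (H3K27ac) ChIP-Seq that overlapped the body of either gene of a pair extended by 50 kb on each side, and a peak near both genes was counted once. Of the 13463 peaks of the list, 2 lay in these windows, 1 near Dlx1/Dlx2, 1 near Dlx3/Dlx4 and 0 near Dlx5/Dlx6. A peak is a stretch of the genome in which chromatin precipitated with the antibody gave more sequenced fragments than the local background.

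The 14 samples profiled open chromatin and RNA in mouse retina with and without Lhx2, and H3K27ac in CD1 mouse retina. A conditional knockout is named in titles of open chromatin and RNA samples and in no H3K27ac title. The peaks come from the H3K27ac sample of embryonic day 14 (E14), whose title names neither an Lhx2 deletion nor a GFP sort. The other samples were not analysed here. The labels call the cells retinal progenitor cells, but according to the methods chromatin was taken from whole dissected retinas, so the list is not limited to progenitors. The authors pooled 2 ChIP libraries before calling peaks against 1 isotype control, which leaves no spread between replicates to set beside a value, and nothing was tested.

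Dlx genes encode homeodomain transcription factors, and the genes of a pair are transcribed toward each other, with their 3′ ends facing. DLX1 and DLX2 are known for the development of inhibitory interneurons in the forebrain and of ganglion cells and inhibitory interneurons in the retina, DLX3 for skin and placenta, and DLX5 and DLX6 for jaw, limb and inner ear. In the embryonic forebrain, conserved enhancers lie between the genes of the Dlx1/Dlx2 and Dlx5/Dlx6 pairs. Acetylation of H3 at lysine 27 is found at active promoters and enhancers.

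Depth and sample identity set what the list can show. After removal of duplicates, 113543038 ChIP tags remained, 12.3 times as many as control tags, and the authors' peak caller scaled the deeper library down to the shallower. No peak of the list had a pileup under 6.0 or a length under 313 bp, so a gene without a peak had no region that reached the calling threshold at this depth, which does not show that it lacks acetylation. Pileup is the mean number of scaled fragments over the bases of a peak, and fold enrichment is that pileup over the local background. As to the labelled tissue, 10 of 10 retinal progenitor markers had a peak over a transcription start site (TSS), against 0 of 6 markers of the pigment epithelium, 1 of 5 lens markers, 1 of 5 blood and vessel markers and 0 of 5 markers of brain outside the eye.

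Among the 6 Dlx genes, Dlx1 had a peak over an annotated TSS, whereas Dlx2, Dlx3, Dlx4, Dlx5 and Dlx6 did not. Among all protein-coding genes 9881 had such a TSS peak, or 44.2%. Of the 6 genes, Dlx1, Dlx2 and Dlx3 had at least 1 peak within 50 kb of the gene body, where 72.1% of all protein-coding genes had one. No peak lay in the interval between the genes of any pair, and 0 of the 2 peaks in the windows were intergenic, a class that held 10.5% of all peaks, so that 2 peaks are too few to differ from the list.

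**Figure D1:**
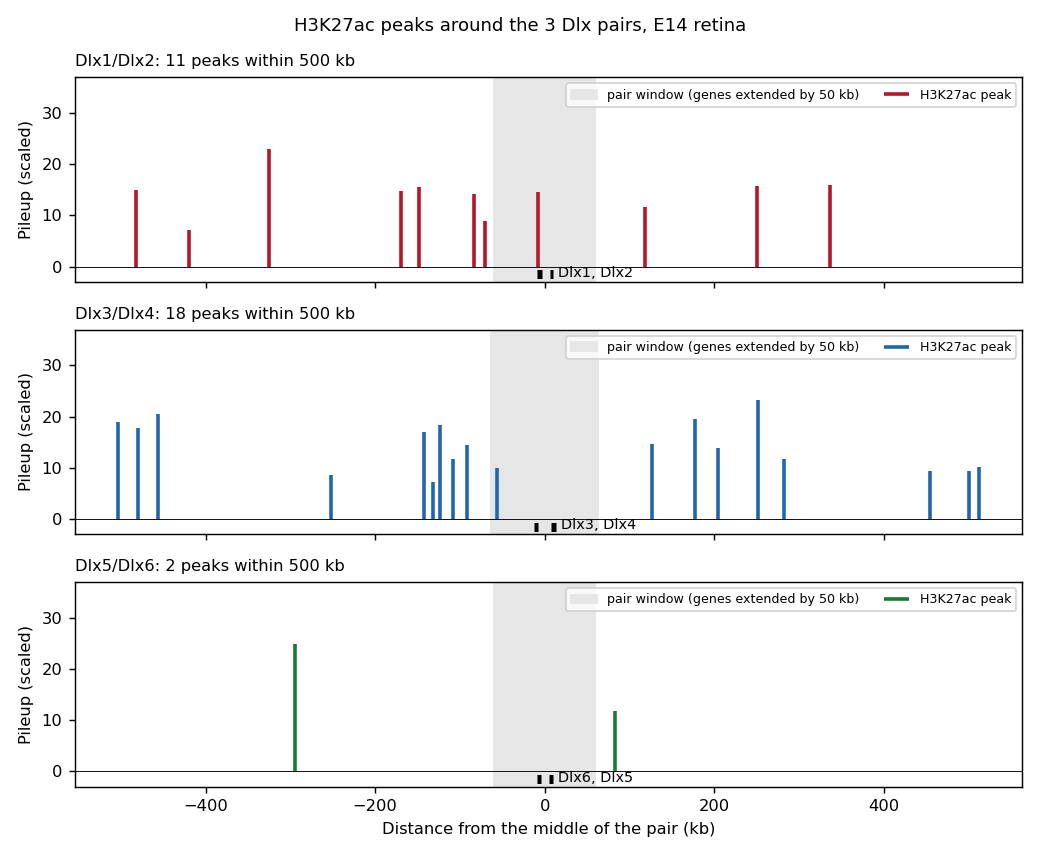
H3K27ac peaks within 500 kb of each Dlx pair, each drawn as a bar at its distance in kb from the middle of the pair, with the scaled pileup on the vertical axis. Black boxes mark the Dlx genes and grey marks the pair window. A bar stands at the genes themselves in the Dlx1/Dlx2 panel, at the left edge of the window in the Dlx3/Dlx4 panel, and nowhere in the window in the Dlx5/Dlx6 panel.

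Dlx1 (ENSMUSG00000041911.3, plus strand, chr2:71366170-71372038) carried the peak that lay over a Dlx gene. It lay at chr2:71366744-71368398 and was 1655 bp long, with a pileup of 14.5, a fold enrichment of 4.18 and a q of 4.46e-05. With the scaling undone and a fragment length of 313 bp, this corresponds to about 944 ChIP tags (95% Poisson interval 885 to 1006, for counting error alone). Compared with the 9095 peaks that covered a TSS of a protein-coding gene, it was long and not high. Its length stood at percentile 79.4 of these peaks, whose median was 1148 bp, its pileup at percentile 30.6 of a median of 16.6, and its fold enrichment at percentile 27.5 of a median of 4.83. In the whole list it ranked 2355 by length and 7338 by pileup of 13463. The 3 protein-coding genes outside the windows whose TSS peaks were nearest in length and pileup were Alg3 and Ece2, which share 1 peak of 1655 bp with a pileup of 14.4, and Fam20c, with 1653 bp and 14.4.

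**Figure D2:**
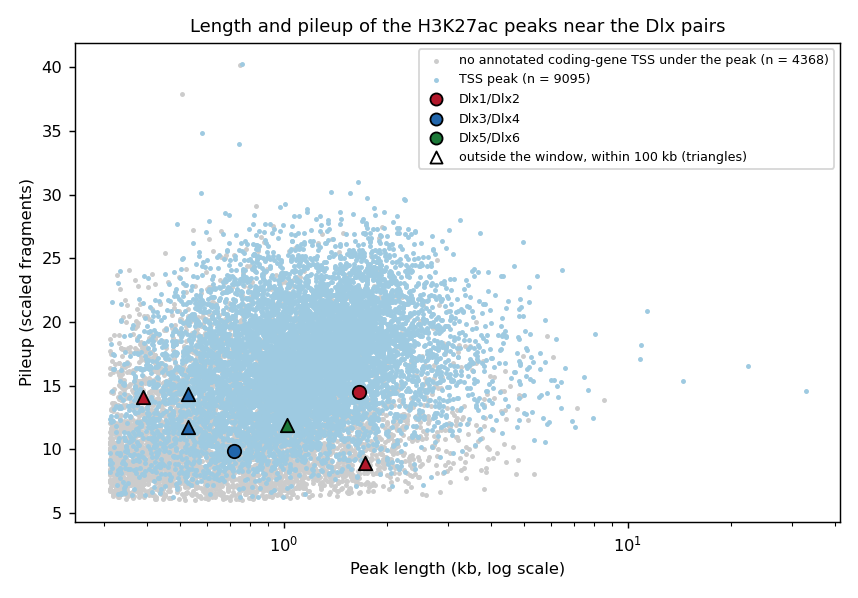
Length in kb on a log scale against scaled pileup for the 13463 H3K27ac peaks, with the peaks near the Dlx pairs in colour. Circles are peaks in the pair windows and triangles are peaks outside them but within 100 kb, and the Dlx1 circle lies in the longer and lower portion of the TSS peaks while the Dlx3/Dlx4 circle is both shorter and lower.

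The Dlx1 peak lay inside the gene and not at its upstream edge. It began 574 bp downstream of the 5′-most TSS of Dlx1 and 4 bp downstream of the next annotated TSS, and it covered 3 of the 6 distinct TSSs, the first of them that of a protein-coding transcript at position 71367158. Without the internal starts no Dlx gene would have a TSS peak, since a peak over the TSS at the 5′ end was present at 0 of 6 Dlx genes and at 37.6% of all protein-coding genes. A TSS peak that missed the 5′-most start was found at 1467 genes, Dlx1 among them, or 14.8% of the 9881 genes with a TSS peak. On transcript Dlx1-001 the peak covered 1620 bp of exon, or 97.9% of its length, of which 1307 bp were 5′ untranslated and 313 bp were coding, and the remaining 35 bp were intron. The coding bases are the first of the Dlx1 reading frame. The first 300 of these 313 bp are shown because they are protein-coding sequence that lies under the peak, read on the plus strand of mm9 at chr2:71368051-71368350, with the start codon in capitals.

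Dlx1 coding sequence under the peak, first 300 bp: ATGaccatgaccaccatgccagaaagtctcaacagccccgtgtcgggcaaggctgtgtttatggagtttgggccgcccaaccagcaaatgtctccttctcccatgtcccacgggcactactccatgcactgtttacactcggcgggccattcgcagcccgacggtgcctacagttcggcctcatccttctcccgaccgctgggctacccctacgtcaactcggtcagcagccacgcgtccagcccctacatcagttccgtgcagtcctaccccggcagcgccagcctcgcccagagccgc

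**Figure D3:**
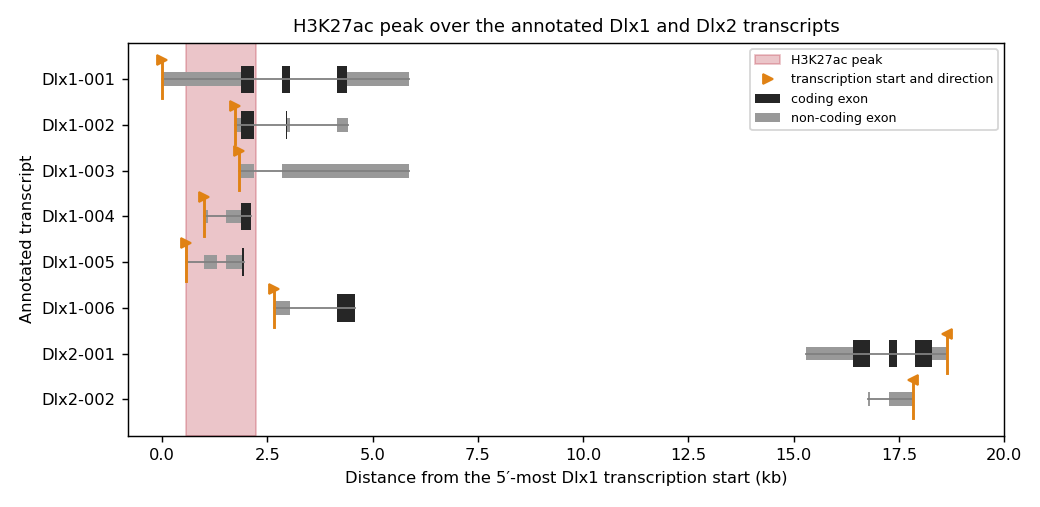
The H3K27ac peak over the annotated transcripts of Dlx1 and Dlx2, by distance in kb from the 5′-most Dlx1 TSS. Orange marks transcription starts, thick black bars coding exons and thin grey bars non-coding exons. The peak covers the long first exon of Dlx1-001 except its first 574 bp, and the starts of Dlx1-002, Dlx1-003 and Dlx1-004, and ends well before Dlx2.

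The bases before the 5′-most TSS were outside the peak. The 250 bp upstream of Dlx1, at chr2:71365920-71366169 on the plus strand, and of Dlx2, at chr2:71384812-71385061 on the minus strand, are shown because they precede the gene with a TSS peak and the gene without one in this pair. Capitals mark the letters TAATTA, the core of many homeodomain sites. They also mark CCAAT (on the other strand ATTGG), the TATA box letters TATAAA (on the other strand TTTATA) and the GC box letters GGGCGG (on the other strand CCGCCC). The letters of these motifs do not overlap one another in the sequences shown.

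Dlx1 upstream: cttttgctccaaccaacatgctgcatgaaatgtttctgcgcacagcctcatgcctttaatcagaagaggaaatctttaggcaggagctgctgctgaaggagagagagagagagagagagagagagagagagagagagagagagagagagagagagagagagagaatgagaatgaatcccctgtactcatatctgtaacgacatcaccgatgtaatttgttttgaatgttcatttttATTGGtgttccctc
Dlx2 upstream: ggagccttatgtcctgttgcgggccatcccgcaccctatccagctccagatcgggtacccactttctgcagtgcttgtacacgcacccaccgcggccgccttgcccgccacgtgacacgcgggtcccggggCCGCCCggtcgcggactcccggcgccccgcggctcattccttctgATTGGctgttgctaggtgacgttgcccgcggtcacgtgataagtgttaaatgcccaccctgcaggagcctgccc

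The Dlx1 window held 1 CCAAT match, written as ATTGG, and a long run of alternating G and A. The Dlx2 window held 1 CCAAT match and 1 GGGCGG match. Of the 22367 windows of this length upstream of protein-coding genes, 35.0% held CCAAT, 39.6% GGGCGG, 12.3% TATAAA and 4.6% TAATTA. The last of these was found in 0 of the 6 Dlx windows. It was also found 0 times in the 1655 bp of the Dlx1 peak, where 21.1% of windows of that length about the midpoints of all peaks held it.

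Base composition differed between the 5′-most Dlx1 TSS and the peak, which itself covers 3 of the 6 annotated Dlx1 TSSs. In the 1000 bp about the 5′-most TSS the GC content of Dlx1 was 44.5%, at percentile 17.9 of protein-coding genes and the lowest of the 6 Dlx genes, whereas the peak downstream had 63.9%, against a median of 60.2% for all peaks. The ratio of observed to expected CpG dinucleotides was 0.637 at the TSS and 0.707 in the peak, where the median of all peaks was 0.716.

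Dlx2 (ENSMUSG00000023391.7, minus strand, chr2:71381466-71384811) had no peak over either of its 2 annotated TSSs. Its 5′-most TSS was 16413 bp from the nearest peak, which was that of Dlx1, and 42.7% of protein-coding genes were farther from a peak. The interval of 9427 bp between the genes held 0 peaks. With a GC content of 61.7% and a CpG ratio of 0.76, the Dlx2 promoter counted as CpG-rich, taken as a GC content of at least 55% and a ratio of at least 0.75. Of the 5570 CpG-rich promoters, 86.4% belonged to a gene with a TSS peak, against 30.2% of the other promoters.

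The other genes of the Dlx1/Dlx2 window had no TSS peak. Dlx1as, a long non-coding RNA on the opposite strand whose body the Dlx1 peak overlaps, had its 5′-most TSS 7550 bp from that peak, and since ChIP-Seq has no strand the peak cannot be assigned to one of the 2 genes by direction. Metap1d, which encodes a mitochondrial methionine aminopeptidase, had a peak of 391 bp with a pileup of 14.1 at 139 bp from its 5′-most TSS, outside the window. A gene for U6 small nuclear RNA also lay in the window, 27572 bp from the nearest peak. On the Dlx2 side of the Dlx1 peak, the next peak was 124968 bp away, and 29.9% of the 13442 stretches between neighbouring peaks were at least as long.

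Dlx3 (ENSMUSG00000001510.7, plus strand, chr11:94981403-94986610) and Dlx4 (ENSMUSG00000020871.7, minus strand, chr11:95001770-95007577) had 1 peak in their window, which belonged to another gene. The peak, at chr11:94937435-94938152, covered the TSS of Itga3, which encodes an integrin alpha subunit, and was 43251 bp from the 5′-most TSS of Dlx3 and 69425 bp from that of Dlx4. It was 718 bp long, with a pileup of 9.88, a fold enrichment of 4.08 and a q of 0.00141, which by the same estimate is about 279 ChIP tags (247 to 314). Among TSS peaks its length stood at percentile 19.2 and its pileup at percentile 5.1. It was counted with Dlx3 because it lay within 50 kb of that gene, and it was not within 50 kb of Dlx4.

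No peak lay over Dlx3, Dlx4 or the 15159 bp between them. The peak-free stretch that held both genes ran for 182051 bp, and 21.6% of stretches in the genome were at least as long. The non-coding gene A730090H04Rik and the pseudogene Gm11514, the other genes of the window, had no TSS peak either. Their promoters had GC contents of 57.4% for Dlx3 and 58.2% for Dlx4, with CpG ratios of 0.698 and 0.697, under the limit for CpG-rich promoters.

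Dlx5 (ENSMUSG00000029755.9, minus strand, chr6:6827805-6832085) and Dlx6 (ENSMUSG00000029754.7, plus strand, chr6:6813334-6818568) had 0 peaks in their window of 118752 bp. The nearest peak to both, at chr6:6905521-6906545, was 73436 bp from the 5′-most TSS of Dlx5 and 92187 bp from that of Dlx6. It covered the TSSs of Acn9 and of the long non-coding RNA Gm17465, and was 1025 bp long with a pileup of 11.9 and a fold enrichment of 4.01. The peak-free stretch around the pair was the longest of the 3 pairs at 376829 bp, and 11.3% of stretches in the genome were at least as long. The median stretch was 59.2 kb.

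The Dlx6 promoter met the limit for CpG-rich promoters and the gene had no TSS peak, like Dlx2. Its GC content was 58.2% and its CpG ratio 0.756, whereas Dlx5, with 57.5% and 0.742, was just under the limit.

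The interval of 9236 bp between Dlx6 and Dlx5 held 0 peaks. The antisense gene Dlx6os1, whose body covers Dlx6, had its 5′-most TSS 85988 bp from the nearest peak, and a U1 small nuclear RNA gene in the window was 31242 bp from it.

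**Figure D4:**
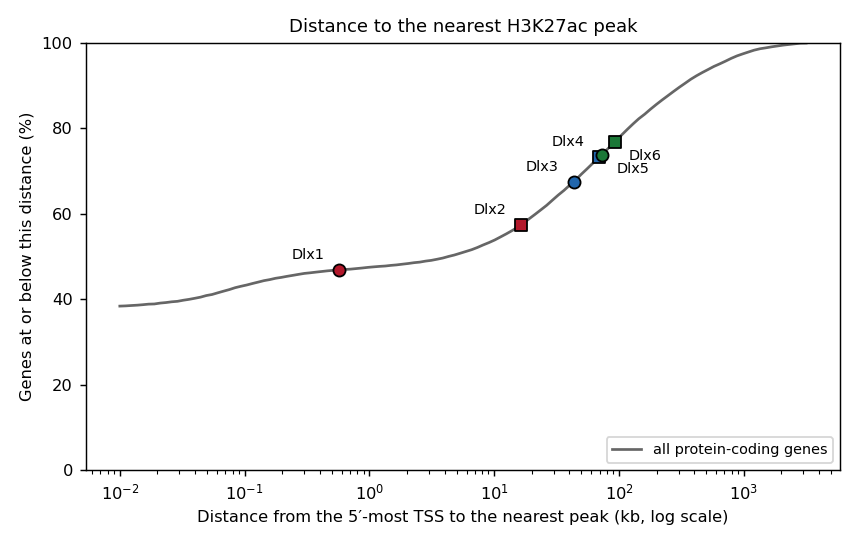
Share of protein-coding genes whose 5′-most TSS lies within a given distance of an H3K27ac peak, on a log scale in kb, with the 6 Dlx genes marked. Dlx1 is at 574 bp and Dlx2 at 16413 bp, and the other 4 genes lie between 43251 and 92187 bp.

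The pairs also differed in how many peaks surrounded them. Within 100 kb of the genes, the counts were 3 peaks for Dlx1/Dlx2, 3 for Dlx3/Dlx4 and 1 for Dlx5/Dlx6, covering 3766, 1773 and 1025 bp. Within 500 kb they were 11, 18 and 2 peaks, and the same windows held 13, 24 and 4 protein-coding genes, which moved in the same order. The median protein-coding gene had 1 peak within 50 kb, 2 within 100 kb and 9 within 500 kb, and 15.2% of genes had 2 or fewer within 500 kb. Pileup of the 11 peaks around Dlx1/Dlx2 lay between 7.11 and 22.9 (median 14.8), and that of the 18 around Dlx3/Dlx4 between 7.2 and 23.2 (median 14.1). The Dlx1 peak was therefore near the middle of its neighbours in pileup and, at 1655 bp, close to the longest of them, an intronic peak of Metap1d of 1720 bp.

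The arrangement of the Dlx pairs was compared with the 3037 pairs of neighbouring protein-coding genes that face each other and lie at most 30 kb apart. Of these, 70.1% had a TSS peak at 1 or both genes and 86.2% had a peak in the pair window. The Dlx1/Dlx2 pair belonged to the 42.5% with 1 gene carrying a TSS peak, and Dlx3/Dlx4 and Dlx5/Dlx6 to the 29.9% with none. Dlx5/Dlx6 was also among the 13.8% of pairs with no peak in the window. A peak between the genes was found in 4.4% of such pairs, so its absence from the 3 Dlx pairs was common to most pairs. The pairs were not matched to the Dlx intervals of 9427, 15159 and 9236 bp, and a shorter interval leaves less room for a peak.

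Other homeobox genes of the same broader class were counted in the same way. Of 43 NK-like homeobox genes listed, 42 were found in the annotation by symbol. Of these 42, such as Msx, Emx, Nkx and Lbx genes, 3 had a TSS peak, or 7.1%. These were Vax2, which patterns the ventral eye, with a peak of 5900 bp, Hmx1 with 4711 bp and Barhl2 with 1999 bp, each longer than the Dlx1 peak. Their pileups of 12.1, 16.0 and 9.15 bracket the 14.5 of Dlx1.

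Genes known to act upstream of, with or downstream of DLX1 and DLX2 had TSS peaks in 10 of 26 cases, or 38.5%. The longest were at Six3 (22347 bp) and Meis1 (14441 bp), both transcription factors of the early retina. In the ganglion cell list, 3 of 6 had a TSS peak, namely Pou4f2 (2189 bp), Isl1 (1154 bp) and Atoh7 (1088 bp), and Pou4f1, Sncg and Ebf1 did not. Of the amacrine and horizontal cell genes 3 of 6 did, Onecut2 (3970 bp), Prox1 (2613 bp) and Onecut1 (2560 bp), whereas Ptf1a, Tfap2a and Tfap2b did not. Photoreceptor genes showed 2 of 6, Otx2 (2411 bp) and Thrb (2006 bp), and Crx, Nrl and Rxrg were among those without one. In pileup the Dlx1 peak exceeded those of Pou4f2 (8.69) and Isl1 (12.8) and was below that of Atoh7 (15.04).

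Among retinal progenitor markers the longest TSS peaks were at Pax6 (32865 bp), Six3 (22347 bp) and Ccnd1 (7915 bp). The genes of skin, jaw and limb, tissues in which Dlx genes are also known, had a TSS peak in 0 of 5 cases, Trp63, Krt5, Krt14, Prrx1 and Hand2. Of the remaining lists, Bfsp1 had a TSS peak in the lens list and Cryaa, Cryba1, Foxe3 and Mip did not, and Kdr had one in the blood and vessel list and Hba-a1, Hbb-b1, Pecam1 and Cdh5 did not. In the brain list, Emx1, Emx2, Neurod6 and Nkx2-1 were among the genes without one. Whether these other cell types contribute to the Dlx windows was not tested.

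**Figure D5:**
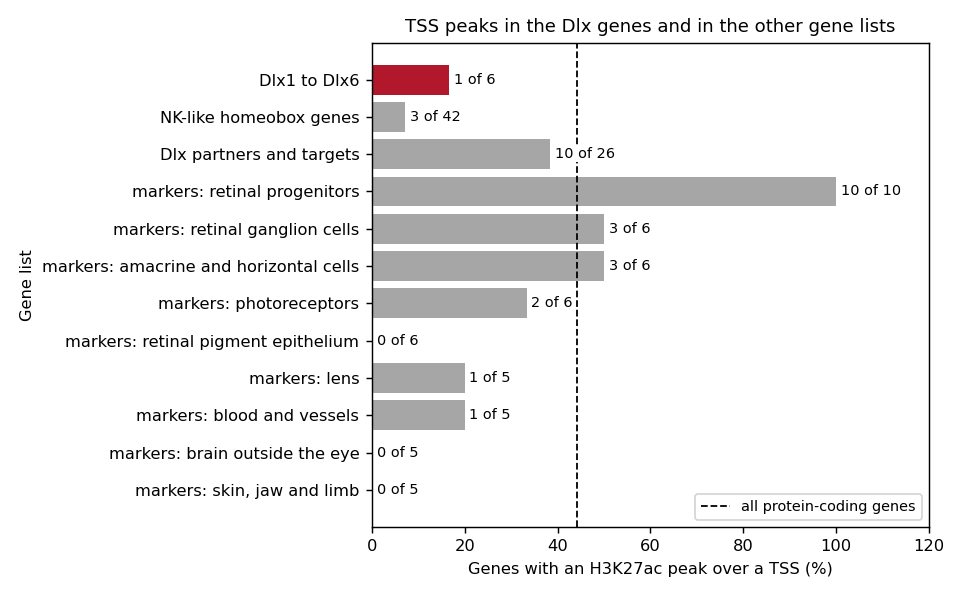
Percentage of genes with an H3K27ac peak over an annotated TSS for the 6 Dlx genes and each other list, with the share of all protein-coding genes (44.2%) as a dashed line and the counts beside the bars. The Dlx genes, at 1 of 6, and the NK-like genes, at 3 of 42, lie left of that line, as do most other lists. Only the lists of retinal progenitors, of ganglion cells, and of amacrine and horizontal cells lie right of it.

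With a margin of 1000 bp about a TSS, 1 of the 6 Dlx genes and 49.8% of protein-coding genes had a peak there. The Dlx1 peak also met a stricter limit, with fold enrichment 4 or higher and q 0.001 or lower, which the peak at Itga3 did not, so that the Dlx3/Dlx4 window then held 0 peaks.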

How the data were processed

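H3K27ac ChIP-Seq of E14 CD1 retina was analysed from the peak list of 1 sample. The authors aligned reads to mm9 with Bowtie2, retained uniquely mapped reads, pooled 2 libraries and ran MACS 2.1.0.20140616 in broad mode (q cutoff 0.05, broad cutoff 0.1), keeping 1 tag per position and using the genome size that the tool sets for human. Pileup, as deposited, is the mean signal of each region once the deeper ChIP data had been scaled to the control's depth. Fold enrichment, as deposited, is the ratio of ChIP pileup to local background. The authors also deposited a −log10 p-value and q-value per region, which the tool averages over its bases.

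Peaks were joined to GENCODE vM1, which is on the same assembly. All peak ends lay within the chromosomes. A TSS peak overlaps an annotated TSS by at least 1 bp, and midpoints were classed as promoter (a TSS with 5000 bp before and 1000 bp after it), exon, intron or intergenic, in that order. Sequences were read from mm9. Named genes were the 6 Dlx genes, every gene under a peak of the windows, every protein-coding gene overlapping a window, the 3 longest TSS peaks of each list, list members without a TSS peak where 5 or fewer, and the 3 genes with the TSS peaks most like that of Dlx1 by log2 length and log2 pileup. The other genes of the windows, the nearest peak of Dlx5/Dlx6 and the pileups set beside that of Dlx1 were named after their values were seen. Some genes and 1 sequence that this rule or the text would have named are not reported here. The Dlx genes and all lists were chosen with earlier results of these data known. Tables were made with Python 3.11.15, numpy 2.4.6 and pandas 2.3.3, plots with matplotlib 3.10.9, and the overlap steps were tested on simulated data. Alternative window sizes, peak limits and definitions of a TSS peak were tried.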

Additional observations from a re-analysis of the deposited data

How the results depend on the processing

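Of 37 alternatives tried over 8 results, 23 left the value within 1.5 times its size and 14 moved it. With windows extended by 25 kb, the Dlx3/Dlx4 window held 0 peaks and 0 bp. With 100 kb there were 3, 3 and 1 peaks around Dlx1/Dlx2, Dlx3/Dlx4 and Dlx5/Dlx6, covering 3766, 1773 and 1025 bp. With 500 kb, an extension chosen after seeing the data, the counts were 11, 18 and 2. Requiring fold enrichment 4 or higher and q 0.001 or lower, the Dlx3/Dlx4 window held 0 peaks and 0 bp. Counting the TSS at the 5′ end of each gene alone, also chosen after seeing the data, 0 Dlx genes had a TSS peak instead of 1. The 0 intergenic peaks stayed 0 under each of the 5 alternatives tried for them. The 25 kb windows and the stricter limit only take from the same peaks, so neither could raise a count of 0. The same holds for the 0 peaks of the Dlx5/Dlx6 window, and these fixed outcomes are among the 23. The 500 kb windows, which held 1, 3 and 0 intergenic peaks, were not among the 5. No paired analysis was possible because the list was called on pooled libraries and no result comes from a test, and no library could be left out. The lowest scaled pileup in the list was 6.0. Peaks were called by q against a local background that rests on the shallower control, so the pileup needed at this depth differs between regions.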

Other observations

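The nearest intergenic peak to any Dlx pair within 500 kb lay 108556 bp beyond Dlx2, at chr2:71493367-71494459, with a length of 1093 bp, a pileup of 11.7 and a fold enrichment of 4.83. Of the 11 peaks around Dlx1/Dlx2, 1 was intergenic, as were 3 of the 18 around Dlx3/Dlx4 and 0 of the 2 around Dlx5/Dlx6, beside 1409 of all 13463 peaks, or 10.5%. The highest peak within 500 kb of Dlx5/Dlx6 covered the TSS of Shfm1, with a pileup of 24.97 over 798 bp.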
